A study of Mus musculus with 4 samples.

Results

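The sort for tdTomato in these mouse lungs was meant to collect mesothelial cells and their descendants, and it also brought in a small number of barcodes with the transcripts of the lung epithelium. Members were chosen by measured counts in all 4 libraries. A barcode had to show 1000 detected genes or more, no more than 15% mitochondrial transcripts, 2 or more unique molecular identifiers (UMIs, each a counted transcript molecule) of Epcam, 1 or more of Nkx2-1 or Cldn18, and less than 2 UMIs of Upk3b per 10000 (CP10k). Epcam encodes a surface adhesion protein of epithelia, Nkx2-1 a transcription factor of the lung and thyroid epithelium, Cldn18 a tight junction protein and Upk3b a surface protein of mesothelium. The rule found 94 members among 8733 barcodes that passed the gene and mitochondrial limits, of 9586 deposited. Because the rule read these 4 genes, their levels in members are given as a description and support nothing.

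Embryos came from a cross of Myrf fl/fl; R26TdTomato mice with Wt1creERT2; Myrf fl/fl mice, and the dams received tamoxifen by intraperitoneal injection at E12.5 (embryonic day). Wt1creERT2 is a tamoxifen-dependent Cre recombinase made where Wt1, a gene of mesothelium, is active, and the reporter stays on in recombined cells and in what they give rise to. Lungs were collected at E16.5 from Myrf mutants and from Cre controls, whose Myrf alleles the labels do not spell out, and 3 to 5 lungs of a genotype were pooled for each sort. Lungs were first assigned to a genotype by their look and typed by PCR later, and about 50000 tdTomato-positive, DAPI-negative cells were sorted, of which about 16000 were loaded on the 10x Chromium 3′ V3 system. Each genotype had 2 libraries. The labels do not say whether these came from separate pools, so a p-value measures only the spread between these libraries.

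In the fetal lung, the tips of the branching epithelium hold Sox9-positive distal progenitors, which give rise to the alveolar cells. Type 2 cells make surfactant, a mixture of lipids and the proteins encoded by Sftpa1, Sftpb, Sftpc and Sftpd, and type 1 cells spread into the thin gas-exchange surface and carry Ager, Hopx and caveolin transcripts. Before birth many epithelial cells carry transcripts of the progenitor and of both alveolar fates together. The proximal airway epithelium is marked by Sox2 and, as it matures, by secretoglobins such as Scgb3a2, and Calca marks its neuroendocrine cells.

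Passing barcodes numbered 282 in control library 1, 3607 in control library 2, 412 in mutant library 1 and 4432 in mutant library 2, and this order is used throughout. Myrf, the targeted gene, stood in the passing barcodes outside the members at 76.2, 49.3, 20.5 and 7.14 counts per 1000000 (CPM). Both mutant libraries lay below both controls. Counts come from transcript 3′ ends, and whether the deleted part of Myrf reaches that end is not given in the sources used here, so this checks the labels only in part. Upk3b reached 2 CP10k in 129, 2733, 3 and 25 barcodes. No member's barcode sequence recurred in another library, and at most 5 passing barcodes were shared by any pair.

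Members numbered 4, 16, 18 and 56 in the 4 libraries. They made up 1.42% (exact Clopper-Pearson 95% interval 0.388 to 3.59), 0.444% (0.254 to 0.719), 4.37% (2.61 to 6.82) and 1.26% (0.956 to 1.64) of the passing barcodes. These intervals cover counting error only. The share was highest in mutant library 1 and lowest in control library 2, and control library 1 lay above mutant library 2, so the groups overlapped. The mean was 2.82% ± 2.20 (SD, n = 2) in mutants and 0.931% ± 0.689 (SD, n = 2) in controls. A two-sided exact permutation test over the 4 libraries gave p = 0.667, and 0.33 is the smallest value that 2 against 2 libraries can give. The difference of 1.89 percentage points fell to 0.33 without mutant library 1 and rose to 3.44 without mutant library 2. The sort, the gate and the mix of the pooled lungs set such shares, and their part was not tested.

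The limit on Upk3b touched the controls alone. Before it was applied 8 and 30 control barcodes met the other criteria, of which it left out 4 and 14, while it left out 0 in either mutant library. Without that limit the difference in share between the genotypes was 0.982 percentage points, against 1.89 with it. Near the Epcam limit, 10 members held exactly 2 Epcam UMIs, and 20 further barcodes had 1 Epcam UMI beside a UMI of Nkx2-1 or Cldn18. In 5 members Nkx2-1 and Cldn18 together gave a single UMI.

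Members were often large libraries of their own. Their median UMI count was 7316, 40937.5, 78395 and 27916.5, against 29197, 14344, 38567 and 16185 in the other passing barcodes. The members of control library 1 lay below the other barcodes of that library, and those of the other 3 libraries lay above. The largest member held 547228 UMIs, and 22 of the 94 held more than 100000. The 3 largest members carried 88.6, 58.9, 51.0 and 22.5% of all member UMIs of their library. Levels of summed UMIs therefore rest on few cells, and values per cell are given beside them.

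The name epithelial held only in part. A group of 25 members (0, 5, 6 and 14 by library) carried 18.9 CP10k or more of 12 mesenchymal genes, among them the collagen genes Col1a1, Col1a2 and Col3a1. The other 69 carried at most 11.3 CP10k, with a median of 0.704. The dividing line at 15 CP10k was drawn in this gap after the values were seen. Mesenchyme-rich members had a median of 2.03 CP10k of Epcam and mesenchyme-low members 8.59. Sftpc lay under 10 CP10k in 14 of the 25 mesenchyme-rich and 8 of the 69 mesenchyme-low members. Des, an intermediate filament of muscle, had a UMI in 18 and 7 of them, and Wt1 in 10 and 2. Of the 10 members with exactly 2 Epcam UMIs, 5 were mesenchyme-rich. Whether a barcode of this kind held 2 cells, or 1 cell with free RNA, was not tested. Below, "members" means all 94, and values for the 69 mesenchyme-low members are added where they differ.

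**Figure D1:**
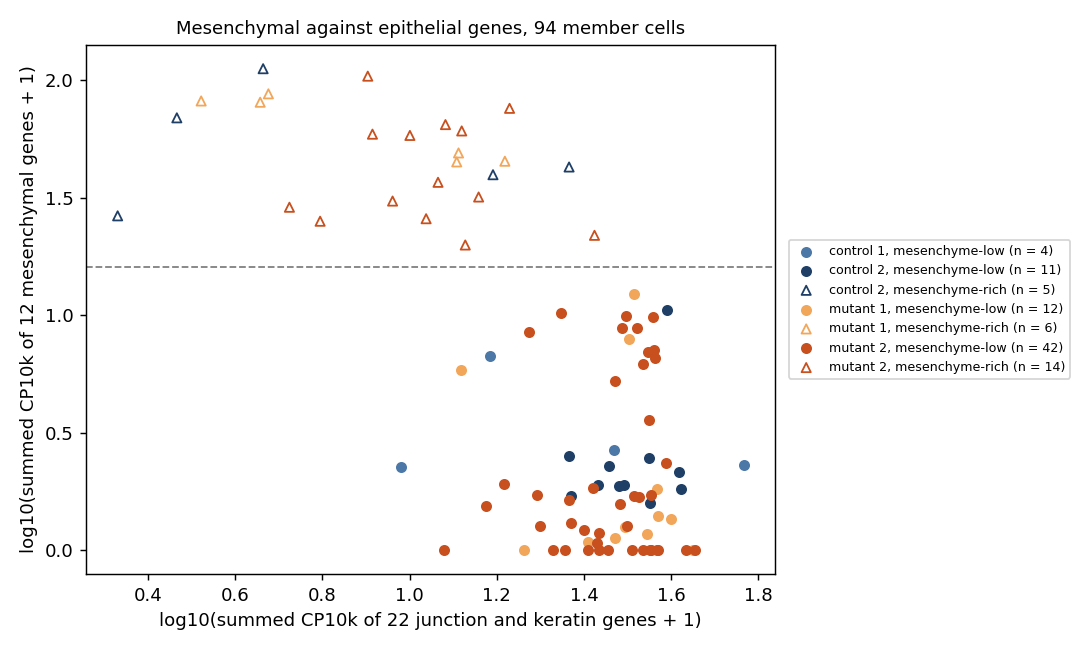
Each point is 1 member cell, placed by the summed CP10k of 22 junction and keratin genes (x axis) and of 12 mesenchymal genes (y axis), both as log10 of the value plus 1; colour gives the library and shape the class, and the dashed line is at 15 CP10k. The 25 mesenchyme-rich members (open triangles) lie above the line and the 69 mesenchyme-low members (filled circles) lie below it, with a gap between 11.3 and 18.9 CP10k.

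Some member barcodes could not be told apart by their counts, and why was not tested. In mutant library 2, 12 members fell into 4 sets of 6, 2, 2 and 2 barcodes whose gene counts agreed within sampling noise, with chi-square over its degrees of freedom between 0.976 and 1.25. The lowest ratio between any pair of members was 17.6, 2.45 and 2.0 in the other 3 libraries. Barcodes of a set differed from each other at 8 letters or more. All 12 held 309 to 485 CP10k of Sftpc, and 1 set of 2 was mesenchyme-rich. Counted once per set, mutant library 2 held 48 members (1.08% of its passing barcodes), and the series held 86. In control library 2, 1 mesenchyme-rich member with 10392 UMIs agreed in the same way with 25 passing barcodes that were not members, of which 20 had 2 CP10k or more of Upk3b.

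The leading genes are protein-coding genes on mouse build mm10 (GENCODE vM21, whole gene spans). Sftpc lies on the minus strand at chr14:70520949-70524081, Sftpb on the plus strand at chr6:72304610-72314371 and Ager on the plus strand at chr17:34597862-34600936. Epcam lies on the plus strand at chr17:87635979-87651129. Of the 6 genes that define the epithelial label, 5 have a promoter in the RefSeq table. Those of Sftpb, which followed Sftpc most closely from cell to cell, and of Ager, which did not, are shown from 250 bases before to 50 bases after the start (RefSeq, GRCm38.p6, chr6:72304360-72304659 and chr17:34597600-34597899, both on the plus strand, 5′ to 3′). Capitals mark CAAG, the core of the site that NKX2-1 binds, and TGTTTNC, a forkhead core, each searched on both strands.
Sftpb: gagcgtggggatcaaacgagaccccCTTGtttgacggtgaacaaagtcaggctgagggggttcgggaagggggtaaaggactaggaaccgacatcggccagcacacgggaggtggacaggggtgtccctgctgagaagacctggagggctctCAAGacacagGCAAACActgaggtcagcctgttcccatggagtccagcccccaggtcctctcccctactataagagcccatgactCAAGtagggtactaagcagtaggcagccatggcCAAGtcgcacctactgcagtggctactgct
Ager: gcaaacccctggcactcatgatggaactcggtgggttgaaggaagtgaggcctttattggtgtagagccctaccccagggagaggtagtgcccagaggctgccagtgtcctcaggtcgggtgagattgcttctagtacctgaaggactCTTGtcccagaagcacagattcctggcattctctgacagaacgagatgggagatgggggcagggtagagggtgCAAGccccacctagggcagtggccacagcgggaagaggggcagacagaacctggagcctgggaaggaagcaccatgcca
The Sftpb promoter held 4 copies of CAAG and 1 of TGTTTNC, and no 2 of them overlapped. The Ager promoter held 2 copies of CAAG and 0 of TGTTTNC. Of the 32851 promoters of this length, 90.6% held CAAG and 20.5% held TGTTTNC, so either match is common by letters alone.

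Type 2 genes were the most abundant of the epithelial programmes. Sftpc, the gene of surfactant protein C, stood at 27.8, 150, 132 and 229 CP10k of summed member UMIs. Control library 1, with 4 members, was lowest and mutant library 2 highest. From cell to cell Sftpc spanned 0 to 196 CP10k in control library 1 (median 19.3), 0 to 513 in control library 2 (median 55.7), 0.278 to 352 in mutant library 1 (median 95.8) and 0 to 858 in mutant library 2 (median 154). The spread within a library was far wider than the difference between library medians. Sftpc reached 100 CP10k in 48 members and was under 10 CP10k in 22. In mesenchyme-low members the medians were 19.3, 108, 153 and 237 CP10k, and the last fell to 163 with agreeing barcodes counted once.

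The other surfactant genes were far lower. Sftpb, which encodes surfactant protein B, gave 0.766, 4.11, 5.67 and 4.28 CP10k, and had a UMI in 62 of 94 members. Sfta2, a surfactant-associated gene, gave 1.34, 7.63, 7.82 and 6.13 CP10k. Ctsh, a cathepsin that processes surfactant proteins, gave 1.15, 3.79, 3.85 and 4.85 CP10k. Ppp1r14c, a phosphatase inhibitor subunit, gave 0.574, 4.80, 4.55 and 3.42 CP10k, and Egfl6, a secreted EGF-like protein, 0.191, 2.23, 2.48 and 2.74. Each of these was lowest in control library 1. The imprinted growth regulator Dlk1 gave 1.53, 7.90, 7.33 and 14.4 CP10k and 8.59, 9.01, 5.09 and 6.54 outside the members, so it was lower in members in both controls and higher in both mutants. Fabp5, which binds fatty acids, gave 1.15, 4.83, 3.26 and 5.99 CP10k in members and 2.29, 3.88, 1.55 and 2.93 outside, and was lower in members in control library 1 alone. Of the 25 type 2 genes, 8 were higher in members than in the other barcodes in all 4 libraries, and 14 were at least 10-fold higher in the 3 libraries other than control library 1, among them Sftpa1, Sftpd, Slc34a2, Lamp3 and Napsa.

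Type 1 genes were present at lower levels. Ager, a membrane receptor of type 1 cells, gave 2.11, 3.22, 4.18 and 2.11 CP10k of summed member UMIs, with a UMI in 2 of 4, 14 of 16, 17 of 18 and 46 of 56 members. Its highest single value, 14.7 CP10k, was in a mesenchyme-rich member of control library 2 with 0.753 CP10k of Sftpc. Hopx, a transcriptional cofactor, gave 0.574, 5.84, 4.93 and 2.97 CP10k, Akap5, a kinase anchor, 2.87, 2.73, 2.74 and 1.21, and Lmo7 2.49, 1.90, 1.91 and 0.903. Emp2, a membrane protein, gave 3.64, 1.75, 2.37 and 0.911 CP10k. Timp3, a metalloproteinase inhibitor, gave 3.25, 3.59, 3.35 and 1.84 CP10k. Of these, Akap5, Lmo7, Emp2 and Timp3 were lowest in mutant library 2 and Hopx in control library 1, so no library was lowest throughout.

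Several genes of the type 1 list did not set members apart in every library. Hopx stood outside the members at 1.68 and 1.38 CP10k in the controls and at 0.112 and 0.134 in the mutants. Krt7 stood outside at 1.58, 1.65, 0.211 and 0.116 CP10k, beside 1.15, 2.37, 2.23 and 1.68 inside. Hopx and Krt7 were lower in members in control library 1 alone, and higher in the 3 other libraries. S100a6 was lower in members (0, 1.47, 4.21 and 1.56 CP10k) than outside (1.77, 3.10, 6.50 and 3.01). In control library 1 the 0 was of 52228 UMIs, which allows up to 0.574 CP10k. Of the 25 genes 5 were lower in members in all 4 libraries, namely Anxa3, Cav1, Cryab, S100a6 and Spock2, and 10 were higher in all 4. Ager, Clic5, Gprc5a and Lmo7 were at least 10-fold higher in the 3 libraries other than control library 1.

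Distal progenitor genes were carried by most members. Sox9, the transcription factor of the branching tips, gave 0.957, 0.998, 1.24 and 1.62 CP10k against 0.0590, 0.0731, 0.114 and 0.0544 outside, and had a UMI in 65 of 94 members. The forkhead factor Foxp2 gave 5.94, 5.16, 4.02 and 3.76 CP10k, against 0.655, 0.506, 0.521 and 0.498 outside. Etv5, an ETS factor that responds to fibroblast growth factors, gave 0.191, 2.16, 2.27 and 2.09, and Fgfr2, their receptor, 1.72, 2.15, 1.83 and 1.51. The helix-loop-helix factor Id2 gave 0.191, 3.70, 3.11 and 5.01 CP10k, the secreted chaperone Clu 1.91, 2.58, 2.66 and 4.37 and the carboxypeptidase Cpm 1.15, 0.998, 1.13 and 0.410. Gata6 gave 0.766, 1.69, 2.22 and 1.70 CP10k in members and 2.15, 2.0, 2.57 and 1.31 outside, and was higher in members in mutant library 2 alone. Of the 17 genes, 9 were higher in members in all 4 libraries, and Cpm, Etv5, Pthlh, Shh, Sox9 and Wnt7b were at least 10-fold higher in 3. Pthlh had only 0, 4, 9 and 30 UMIs in members, so its ratios rest on few counts. Lin28b had no UMI in members.

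**Figure D2:**
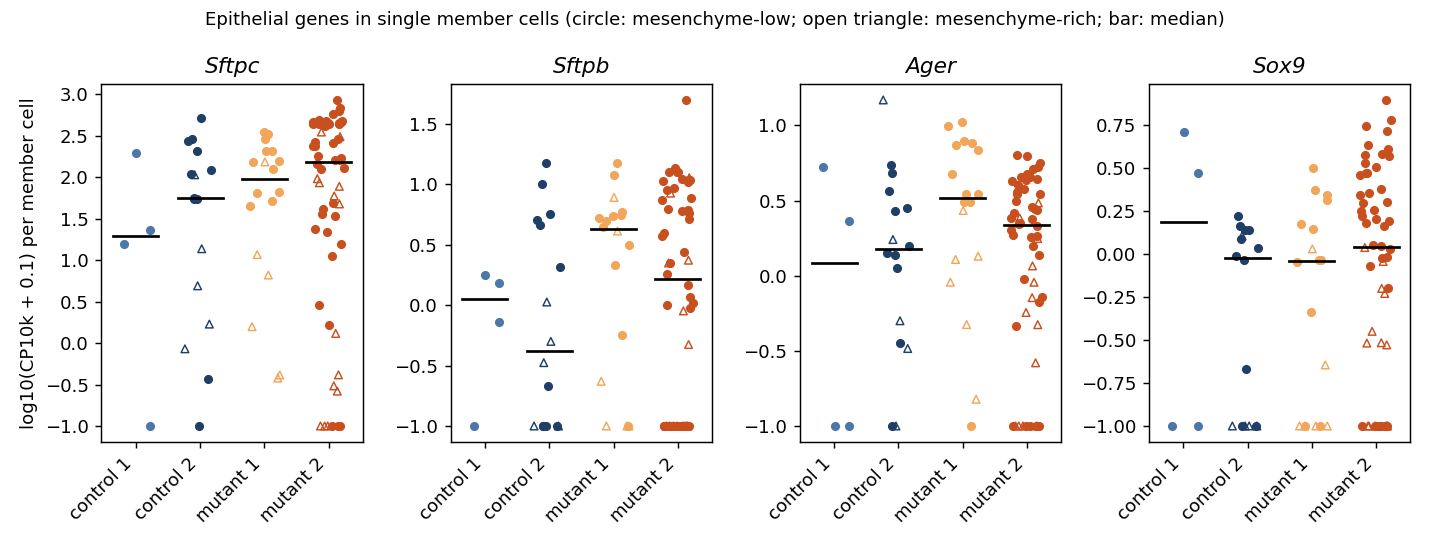
Each point is 1 member cell, with log10 of CP10k plus 0.1 of Sftpc, Sftpb, Ager and Sox9 on the y axis and the library on the x axis; circles are mesenchyme-low and open triangles mesenchyme-rich members, and bars are medians. Points at the foot of each panel are cells without a UMI, and the spread within each library is wider than the distance between the medians of Sftpc (19.3, 55.7, 95.8 and 154 CP10k).

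Transcripts of the 3 programmes met in the same barcodes. Sftpc had a UMI in 86 members, Ager in 79, both in 75 and neither in 4, and 58 members had Sftpc, Ager and Sox9 together. Detection depends on depth, so each member with 5000 UMIs or more was thinned to 5000, which left out 9 members. Among the 85 at that depth, 69 kept a Sftpc UMI, 51 an Ager UMI and 46 both, while 32 kept Sox9, all 32 with Sftpc. As a share, co-detection of Sftpc and Ager moved from 79.8% of all members to 54.1% of thinned ones. Barcodes with 2 cells would also give both transcripts, and this was not tested.

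Across the members, the genes closest to Sftpc by Spearman's rank correlation of CP10k, among 10466 genes detected in at least 20% of members, were Sftpb (rho = 0.83), Sftpa1 (0.81), Napsa (0.81), Ctsh (0.80) and Dram1 (0.80). Those closest to Ager were Lmo7 (0.65), Ndnf (0.64), Cdh1 (0.63), Sfta2 (0.62) and Clic3 (0.59). In the 69 mesenchyme-low members Sftpb kept its value with Sftpc (0.83), whereas Cdh1 fell to 0.48 with Ager. Sftpc and Ager themselves gave rho = 0.34 over all members and 0.11 in mesenchyme-low members. Sftpc gave rho = 0.61 with Sox9, 0.62 with Id2 and 0.19 with Hopx over all members, and 0.48, 0.53 and -0.00059 in mesenchyme-low members. These values describe cells that share libraries and differ in depth, so they carry no p-value.

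Few members carried the airway genes Sox2 or Scgb3a2. Only 9 had 2 or more UMIs of Sox2, the airway transcription factor, or of Scgb3a2, and 0 of these reached 10 CP10k of Sftpc. One member of control library 2, with 87292 UMIs, held 28 UMIs of Sox2, 167 of Scgb3a2, 75 of Calca, 43 of Pcsk1, a hormone convertase, and 0 of Sftpc. A member of control library 1 with 31633 UMIs held 16 UMIs of Scgb3a2 and 2 of Sox2. In mutant library 2 a mesenchyme-rich member with 117562 UMIs held 37 UMIs of Foxj1, the factor of ciliated cells, beside 187 of Col1a1. Both such members of mutant library 1 were mesenchyme-rich. Krt5 and Trp63, genes of basal cells, had 0 UMIs in all 9. Cldn10, a claudin gene also on the airway list, was widespread instead. It had a UMI in 1 of 4, 12 of 16, 13 of 18 and 40 of 56 members. Its level was 0.191, 1.26, 0.836 and 0.664 CP10k in members, against 0.0307, 0.0506, 0.0198 and 0.0129 outside.

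Of the 22 junction and keratin genes, 18 were higher in members in all 4 libraries. The rule did not read any of these 22. Cdh1, which encodes E-cadherin, gave 4.21, 1.76, 1.71 and 1.07 CP10k, against 0.0529, 0.0170, 0.00771 and 0.00155 outside. The tight junction gene Cldn3 gave 1.34, 3.96, 3.08 and 3.89 CP10k, and the simple-epithelium keratins Krt8 and Krt18 gave 0.574, 3.52, 3.10 and 2.45 and 0.957, 3.83, 2.73 and 2.65. Ranked by the smallest ratio to the other barcodes over the 3 libraries with at least 16 members, the leading genes were Sfta3-ps (107-fold in control library 2, 205-fold in mutant library 1 and 512-fold in mutant library 2), Cldn18, Cdh1, Nkx2-1, Cldn7, Epcam, Irx3, Sftpb, Sftpa1 and Ager. Tmem213, Cxcl15, Ppp1r14c, Tspan8, Sfta2, Napsa, Sftpc, Cadm1 and Cldn3 came next. Cldn18, Nkx2-1 and Epcam were read by the rule, so their ratios and places were set in part by it and support nothing. For 17 of the first 20 by this rank the ratio was smallest in control library 2, while Irx3, Ppp1r14c and Cadm1 had their smallest in mutant library 1.

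Signalling and transport genes split into those that marked members and those shared with the rest of the sort. Among ligands, Cxcl15, a lung chemokine, gave 0, 1.25, 1.20 and 2.36 CP10k against at most 0.0248 outside, Pdgfa, which acts on mesenchyme, 0, 1.62, 1.32 and 1.3, and Tgfb2 2.49, 2.49, 3.07 and 2.18 beside 3.23, 2.25, 2.48 and 1.52 outside. Sema3e gave 2.49, 0.713, 0.407 and 0.290 CP10k. Among receptors, Igf1r, Lrp6 and the hedgehog receptor Ptch1 were not raised. Ptch1 gave 0.957, 0.839, 1.68 and 0.863 CP10k, below 4.95, 2.75, 3.23 and 2.05 outside. Of 23 receptor genes 6 were higher and 6 lower in members in all 4 libraries. The chloride cotransporter gene Slc12a2 gave 3.64, 2.03, 2.14 and 1.5 CP10k and the sodium pump subunit gene Atp1b1 4.21, 3.42, 3.85 and 2.21, against at most 0.505 outside. The chloride channel gene Cftr stayed at 0.412 CP10k or lower.

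Proliferation genes were carried by members and by other barcodes. The 18 cell cycle genes summed to 36.2, 25.7, 21.3 and 27.9 CP10k in members and to 18.9, 17.9, 21.4 and 25.8 outside. Per barcode the median was 29.2, 18.2, 18.5 and 22.5 CP10k in members and 4.04, 11.9, 6.67 and 12 outside, higher in members in all 4 libraries. Mki67, a marker of cycling cells, had a UMI in 74 members, a count that depends on depth. Its level was 15.9, 3.68, 3.80 and 2.84 CP10k in members, against 3.48, 1.94, 4.15 and 2.52 outside. The value of control library 1 rests on 4 cells. Top2a gave 10.1, 5.36, 4.82 and 4.22 CP10k beside 3.81, 3.09, 4.45 and 4.32. Of the 18 genes 2 were higher and 2 lower in members in all 4 libraries.

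Epithelial transcripts also lay outside the members, and among passing barcodes more so in controls. Sftpc stood at 0.874, 3.85, 0.190 and 0.0903 CP10k in the other passing barcodes, which is 3.15, 2.57, 0.143 and 0.0394% of its level in the members. Both controls lay above both mutants. The limit on Upk3b had placed 4 and 14 control barcodes that met the other criteria among these, and 0 in either mutant library. In the other barcodes with less than 2 CP10k of Upk3b, Sftpc stood at 0.381, 1.04, 0.190 and 0.0907 CP10k. The order of the genotypes was kept there, with a smaller difference. In mutants 99.1 and 98.7% of the passing Sftpc UMIs were in members, whereas in controls 16.9 and 45.5% were. A Sftpc UMI was seen in 20.1, 64.7, 46.4 and 10.3% of other barcodes, and with every barcode thinned to 5000 UMIs in 8.57, 56.3, 8.04 and 3.07%, against 75, 73.3, 87.5 and 80% of members. In control library 2 the share was 73.9% among barcodes with 2 CP10k or more of Upk3b (median 12763 UMIs) and 35.3% among the rest (median 19092 UMIs). Upk3b barcodes are mesothelial by their rule and not a known source of Sftpc, so a single UMI of Sftpc does not mark an epithelial cell in that library.

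These UMIs were not spread evenly over the other barcodes in controls. In control library 1, 10 of 278 other barcodes had 10 CP10k or more of Sftpc and held 87.8% of the 711 Sftpc UMIs outside, 221 of them in 1 barcode. In control library 2, 846 barcodes outside the members had 10 CP10k or more of Sftpc and held 60.5% of the Sftpc UMIs outside, and the highest value was 682 CP10k. Of the 16 members of that library, 6 had a Sftpc level within the range up to the 95th percentile of the other barcodes (16.6 CP10k). In mutant libraries 1 and 2 only 2 barcodes each outside the members reached 10 CP10k. Barcodes that failed the limits had Sftpc at 4.78, 9.51, 11.2 and 17.7 CP10k, or 17.2, 6.34, 8.48 and 7.72% of the member level.

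Other epithelial genes gave a like order by their median ratio, though not gene by gene. The epithelial genes compared numbered 27 in control library 1 and 33 in each of the other 3. Their level outside was a median of 4.98, 1.83, 0.521 and 0.271% of the level in members. In the other barcodes with less than 2 CP10k of Upk3b, Sftpb and Nkx2-1 kept both controls above both mutants. Epcam kept this order narrowly, at 0.0137, 0.0243, 0.00609 and 0.0132 CP10k. Ager (0.0439, 0.0277, 0.0288 and 0.0156 CP10k) and Cldn18 (0.0658, 0.0172, 0.0205 and 0.00456 CP10k) did not keep it. In the 3 libraries other than control library 1, no gene compared was above 9.16%. Foxp2, at 9.82, 12.9 and 13.3% there, and Fgfr2, at 10.0, 13.7 and 17.0%, were not among them. The choice of genes therefore set this ceiling at least in part, and it is no measured limit on sharing. These medians and ranges therefore describe genes that mark members, not all epithelial genes. Epcam, Nkx2-1 and Cldn18 were included, and the rule itself lowered their level outside. The genes of a library did not share 1 ratio. In control library 2 the quartiles were 1.08 and 2.41%, and the range ran from 0.693% for Foxa2 to 9.10% for Klf5. In mutant library 2 it ran from 0.0394% for Sftpc to 7.76% for Etv5. The source of the UMIs outside the members was not tested.

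**Figure D3:**
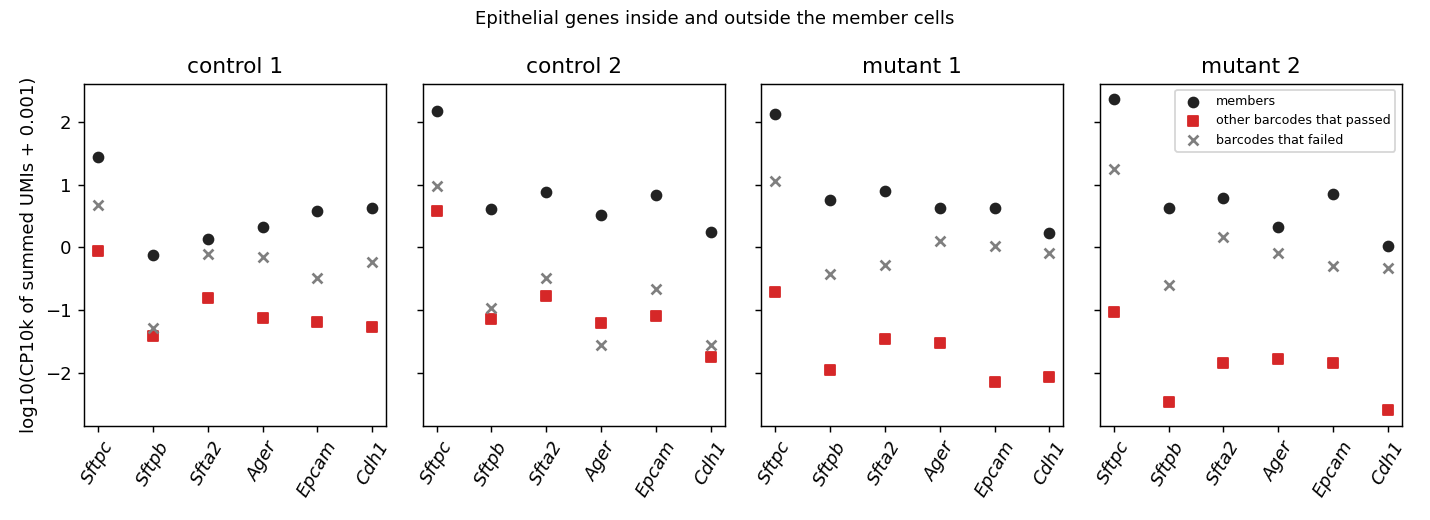
Each panel is 1 library, with log10 of CP10k plus 0.001 of summed UMIs for 6 epithelial genes in members (circles), other passing barcodes (squares) and barcodes that failed the limits (crosses). Squares lie farther below the circles in the mutants than in the controls, as for Sftpc at 3.15 and 2.57% of the member level in controls and 0.143 and 0.0394% in mutants.

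In the other direction, members also held transcripts of other cell types, mostly at lower levels than the other barcodes. The 10 mesothelial genes summed to 0, 0.562, 1.36 and 0.426 CP10k in members and to 15, 12, 3.01 and 1.26 outside (0, 4.70, 45.3 and 33.7% of the level outside). None of the 10 was higher in members in any library. The limit on Upk3b kept mesothelial barcodes out of the members, so the rule set these percentages in part, above all in controls. In the other barcodes with less than 2 CP10k of Upk3b the list summed to 0.568, 1.496, 2.903 and 1.166 CP10k. Members of control library 2 and of both mutant libraries lay below these levels too. The 0 of control library 1 allows up to 0.574 CP10k, so members there could not be told apart from those barcodes. Bnc1 and Muc16 had no UMI in any member, and Wt1 had 0, 4, 35 and 8. The 9 endothelial genes summed to 0, 0.222, 0.336 and 0.322 CP10k against 2.36, 0.981, 1.54 and 0.559 outside, and the 8 immune genes to at most 0.0319, with Ptprc at 0. Haemoglobin and the other erythroid genes gave 0.957, 0.0554, 0.0567 and 0.0477 CP10k in members, and 67 of 94 members had no erythroid UMI, although the failed barcodes held 3435, 33.1, 949 and 2422 CP10k. The 12 mesenchymal genes summed to 1.91, 6.60, 26.4 and 15.7 CP10k in members (2.06, 7.74, 28.8 and 28.1% of the level outside), and to 1.91, 0.879, 4.08 and 2.06 in mesenchyme-low members. In these sums both mutants lay above both controls with and without the mesenchyme-rich members. Values per cell did not keep this order. The medians per cell were 1.49, 1.38, 2.84 and 0.878 CP10k in all members, with mutant library 2 lowest. In mesenchyme-low members they were 1.49, 0.895, 0.309 and 0.552 CP10k, with both mutants below both controls. The 8 smooth muscle and sarcomere genes summed to 0.191, 0.570, 38.2 and 11.9 CP10k (2.48, 5.32, 60.5 and 41.5% of the level outside).

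Mutant and control members were compared over UMIs summed per library, with edgeR's quasi-likelihood test. Control library 1 had 4 members, below the 10 required, so the fit held control library 2 and both mutant libraries, and the spread came from the 2 mutant libraries alone (1 residual degree of freedom). Among 11541 genes tested, 118 (1.02%) passed an adjusted p of 0.05, of which Upk3b belongs to the rule. The remaining 117 were 90 higher and 27 lower in mutants. Distal progenitor, type 1 and type 2 genes gave 0 calls among 16, 24 and 21 tested, with lowest adjusted p of 0.9998, 0.764 and 0.198 and median log2 differences of 0.02, -0.18 and 0.19, beside 0.03 over all genes. At an unadjusted p under 0.05, 531 genes of the table passed. DESeq2 called 14 genes, and Sftpc, Sftpb, Ager, Sox9 and Hopx were uncalled in all 14 alternatives. Sftpc differed by a log2 of 0.27 (SE 0.46), Sftpb by 0.24 (SE 0.56), Ager by -0.08 (SE 0.55), Sox9 by 0.50 (SE 0.54) and Hopx by -0.60 (SE 0.54). Differences of about the size of these errors were not detectable with 3 libraries. In the other barcodes, over all 4 libraries, 105 of 16152 genes (0.65%) were called, 5 higher (0.031%) and 100 lower (0.619%) in mutants.

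The genes that rose in mutant members were led by contractile genes, and all 8 on the smooth muscle and sarcomere list were called higher (0.78% of tested genes were), with a median log2 difference of 5.35. Acta2, smooth muscle actin, stood at 0, 14.3, 1116 and 395 CPM (log2 5.67, SE 0.79, edgeR adjusted p = 5.05e-09). Tagln, which binds actin, stood at 0, 19.8, 1244 and 464 CPM (log2 5.37, SE 0.77). Des stood at 0, 6.34, 459 and 82.7 CPM (log2 5.34, SE 0.80), and Actg2, enteric smooth muscle actin, at 0, 1.58, 243 and 62.9 CPM. Both mutant libraries lay above both control libraries for these genes, and mutant library 1 was highest. Tnnt2, a troponin, and Myh11, a smooth muscle myosin, differed by 4.91 (SE 0.77) and 4.86 (SE 0.77). Myl9, a myosin light chain, and Igf1, a growth factor of mesenchyme, differed by 3.14 (SE 0.65) and 3.13 (SE 0.65).

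These transcripts sat in the mesenchyme-rich members. Those members held 80.6, 95.8 and 93.9% of the UMIs of the 8 contractile genes in control library 2 and mutant libraries 1 and 2, though only 11.8, 34.3 and 26.7% of all member UMIs. For the 90 higher genes the median share was 90.3% in mutant library 1 and 90.0% in mutant library 2. The same list summed to 7.73, 10.7, 63.1 and 28.8 CP10k in the barcodes outside the members, with both mutants above both controls there too. Without the mesenchyme-rich members, an alternative chosen after seeing the data, 50 genes passed (21 higher and 29 lower), 37 of them shared with the 117. Acta2 then stood at 8, 149 and 87 UMIs in the 3 libraries fitted (log2 3.15, edgeR adjusted p = 0.00203) and Tagln at 5, 148 and 47 (log2 3.53, adjusted p = 0.000492). Actg2, at 1, 24 and 10 UMIs, and Des, at 0, 17 and 5 UMIs, then missed the threshold (edgeR adjusted p = 0.9999 for each). Actg2 still differed by a log2 of 3.26, and every Des UMI of the fit was in the mutants, so these low counts do not show that the difference had gone.

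**Figure D4:**
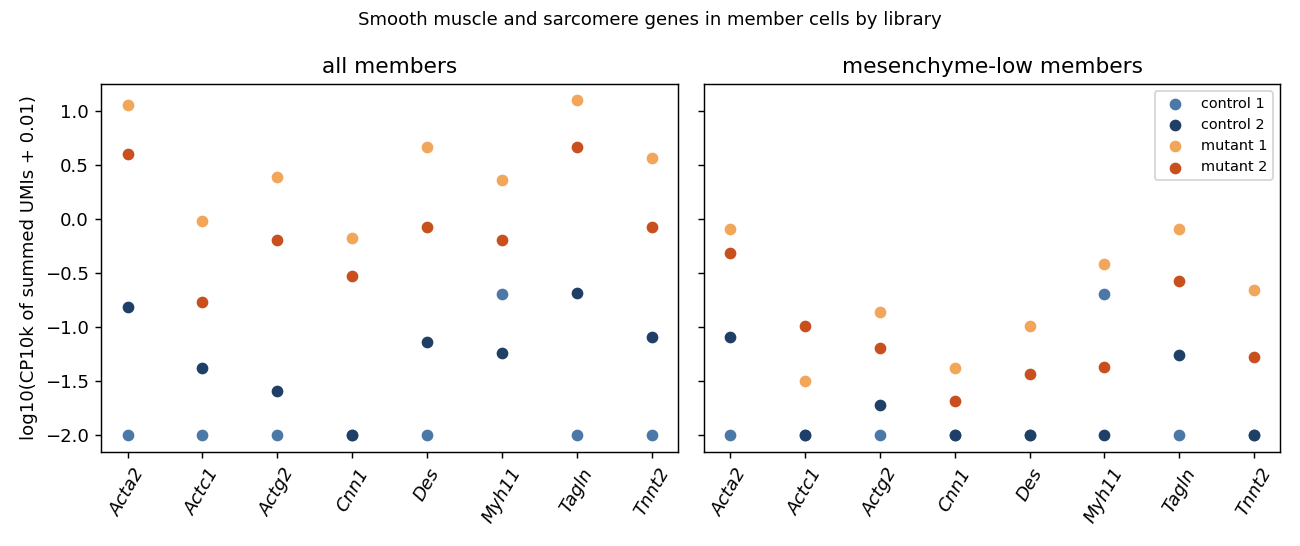
The 8 smooth muscle and sarcomere genes are on the x axis and log10 of CP10k plus 0.01 of summed UMIs on the y axis, for all members (left) and mesenchyme-low members (right), with 1 point per library. Mutant points lie above control points in all members, and the values fall in the right panel, as for Des from 1296 to 17 UMIs in mutant library 1; points at the foot are libraries with 0 UMIs.

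The genes that fell in mutant members were led by airway genes, and 5 of the 8 tested on the airway list were called lower (0.243% of tested genes were). Calca stood at 0, 60.2, 1.06 and 0.398 CPM (log2 -6.26, SE 0.62, edgeR adjusted p = 3.00e-18) and Scgb3a2 at 306, 132, 0.354 and 19.5 CPM (log2 -3.74, SE 0.51). Of the UMIs of control library 2, 75 of 76 for Calca and all 167 for Scgb3a2 came from the single member with 87292 UMIs. That member gave at least 80% of the UMIs of control library 2 for 17 of the 27 lower genes. Of the others that the rule for named genes takes, Meis2, a homeobox gene, stood at 0, 142, 48.5 and 27.8 CPM, with 87.7% of its UMIs in control library 2 in that member. Wdr89 stood at 19.1, 105, 14.9 and 31.4 CPM and the ribosomal pseudogene Rpl9-ps6 at 0, 128, 25.1 and 44.2 CPM, spread over 14 and 16 members of control library 2. Reads of Rpl9-ps6 may be shared with near-identical ribosomal copies.

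Without the 9 members that held 2 or more UMIs of Sox2 or Scgb3a2, an alternative chosen after seeing the data, edgeR called 7 genes, all 7 among the 117, with 7 higher and 0 lower. At an unadjusted p under 0.05, 333 genes passed there. Without these and the mesenchyme-rich members, with 9 members left in control library 2, 16 genes passed (14 higher and 2 lower), 10 of them among the 117. Tagln (log2 3.25, adjusted p = 0.0134), Myh11, Igf1 and Wdr89 (log2 -2.04, adjusted p = 0.0412) were among those, and Acta2 was not (adjusted p = 0.0533). The number of calls changed with the members summed, and Sftpc, Ager and Sox9 were not called in any of these fits.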

How the data were processed

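The deposited values were whole-number UMI counts per gene and barcode, made by the authors with Cell Ranger 6.0.2 on build mm10, per the submitters' processing notes, with no normalization. How barcodes were called, which annotation release was used and whether strand was read are not given in the sources used here. Sample titles gave each library's group and number. Of 32285 genes listed, 32158 matched GENCODE vM21 by ID.

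Members and the 17 gene lists were chosen with earlier results of these data known. Levels are UMIs of a gene per 10000 (CP10k) or per 1000000 (CPM), over summed UMIs unless given per cell. Agreement between barcodes meant a chi-square no higher than 1.3 times its degrees of freedom, over at least 100 genes with 5 or more expected UMIs. Scrublet in scanpy 1.11.5 marked 7 of 8733 barcodes by its automatic threshold and so did not work. No barcode was removed as a doublet, and removal of the highest scores, 0.8% per 1000 barcodes, was an alternative that took 4 members.

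Counts summed per library were tested with edgeR 4.0.16 under R 4.3.3 (filterByExpr, TMM, glmQLFTest, two-sided, Benjamini-Hochberg over all genes tested), in libraries with at least 10 members, and checked on simulated data. DESeq2 1.42.0, RLE scaling and no filter were alternatives. Shares were compared by an exact permutation test over libraries. The text names the rule's and label's genes, the 8 most abundant genes of the distal progenitor, type 1 and type 2 lists and the 4 of every other list, up to 8 rises and 8 falls (mean 50 CPM or more, mutant libraries all on one side of the controls), the 20 genes with the largest lowest ratio to other barcodes, and the 5 nearest to Sftpc and to Ager. Some low genes of the lists of other cell types are given by the list's sum only, and 2 genes that the rule takes are not reported here. Calca, Pcsk1 and Foxj1 were named after their values were seen.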

Additional observations from a re-analysis of the deposited data

How the results depend on the processing

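The difference in the share of members kept its direction under all 14 alternatives, at 0.33 to 3.44 percentage points, and no p could pass 0.05. The count of 117 called genes became 66 with RLE scaling, 14 with DESeq2, 211 with Epcam at 3 UMIs or more and 47 with every library that had a member. It became 50 without mesenchyme-rich members, 7 without members holding Sox2 or Scgb3a2 and 16 without both. The cause was not tested. No library could be left out of the fit of 3 libraries, which would then have no residual degrees of freedom or no control. From the fit of all 4 libraries, leaving out 1 gave 3 to 16 calls (3 without control library 2, 3 without mutant library 1 and 16 without mutant library 2), and the lone library of a genotype is then assumed to vary like the others. Without control library 2 the median log2 difference of all genes was 5.84, with control library 1 (4 members, 52228 UMIs) as the lone control. The reason for this size was not tested.

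The replicate block could not be fitted to 3 libraries. With all 4, the block gave 9 calls against 47 without it, and the deviations of same-numbered libraries correlated at r = 0.20 over 10292 genes. The labels do not say that the numbers pair the samples.

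The mean Sftpc level outside the members was 1.48% of the member level, and 9.94% when taken from failed barcodes. Co-detection of Sftpc and Ager moved from 79.8 to 54.1% of members when thinned to 5000 UMIs. Alternatives on agreeing barcodes, mesenchyme-rich and airway members, thinning and the block were chosen after seeing the data. With 4 members and 52228 UMIs, control library 1 limits every control value.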
